A study of Ovis aries with 6 samples.

Results

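Nuclear receptors and the cofactors that work with them were followed in the longissimus dorsi, the long back muscle, of 2 sheep breeds. The genes were taken from a list of 33 symbols, of which 27 have a row among the 23144 genes of the count table, and 22 were expressed highly enough to be tested. The symbols RXRA, RARA, THRB, PPARA, PGR and NR2F2 have no row of their own. Rows under other names that the deposited table or RefSeq ties to RXRA, RARA, PGR or NR2F2 are given beside the group and not counted in it. The libraries came from 3 ewes of the Qianhua Mutton Merino (QHMM) breed and 3 of the Small Tail Han (STH) breed, all aged 1 year, kept in 1 environment under what the labels call natural conditions, and each library is 1 animal. No engineered allele or treatment is recorded, and breed was the only recorded factor that differed. According to the paper, live weight was taken before slaughter, after a fast. Every comparison is STH vs. QHMM, and it asks which genes of this family differ in muscle between the breeds.

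Nuclear receptors are transcription factors that bind small lipid-soluble ligands such as retinoids, thyroid hormone, vitamin D, steroids, fatty acids and oxysterols. The retinoid X receptors (RXR) pair with many of the others, among them the retinoic acid receptors (RAR), the thyroid hormone receptors, the vitamin D receptor, the peroxisome proliferator-activated receptors (PPAR) and the liver X receptors (LXR). A receptor without ligand can hold corepressors on its target genes, and ligand binding exchanges these for coactivators. In skeletal muscle these receptors are known for their parts in fibre type, fuel choice and lipid metabolism.

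The libraries held 10982191 to 14334544 reads on genes. On the principal components of all tested genes, the breeds separated on the first axis, which held 44.1% of the variance, and QHMM 2 and STH 3 stood apart from the other libraries of their breeds on the second axis, with 19.1%. Both lay on the same side of that axis, at -31.6 and -37.5, and what they share is not recorded. Differences were tested with edgeR's quasi-likelihood test, and a gene was called at a false discovery rate (FDR) below 0.05 together with a change of at least 1.5-fold. Of all 12506 genes tested, 432 were called, which is 3.45%. Slow-fibre markers had a summed level of 16456 to 23794 RPKM, the deposited unit that scales reads to gene length and library total, in QHMM and 7270 to 11213 in STH, and fast-fibre markers of 52689 to 73218 and 47783 to 63716, so the defining genes of skeletal muscle were present in every library, although the fast-fibre gene TNNT3 was listed at 0.

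Among the receptors and cofactors, 1 of 22 was called, a share of 4.55% against the 3.45% of all genes. This gene was RXRG, the retinoid X receptor gamma, a form of the receptor that is abundant in skeletal muscle, and it fell in STH, where 1.83% of all genes were called lower and 1.62% higher. The other 21 had FDR values from 0.126 to 0.9749. For 13 of these 21, the 95% interval of the log2 fold change stayed within 1 log2 unit of 0, and for the other 8 it reached a 2-fold difference or more. The interval also included 0 for RARB, NR2F1, NR5A2 and NR6A1, and it lay to 1 side of 0 for RORA, VDR, NR2F6 and NRIP1. The median log2 fold change of the 22 genes was -0.15, against 0.02 for all tested genes, and 13 of the 22 were lower in STH (59.1%, against 48.2% of all tested genes).

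Expression levels spanned a wide range when scaled to gene length. THRA, the thyroid hormone receptor alpha, was the most abundant, at a mean of 92.0 RPKM over the 6 libraries, and ranked 691 among all genes. Its lowest library, STH 2 at 64.6 RPKM, was above the highest library of any other gene of the group. Next in order of the mean came NR1H2 at 31.3, RXRG at 25.7, RXRB at 19.6 and NR1H3 at 19.5 RPKM. RXRB and NR1H3 did not differ beyond their spread, since RXRB lay between 16.5 and 24.5 RPKM and NR1H3 between 15.5 and 24.9. The corepressor NCOR1 (13.2) and the orphan receptor NR2F6 (10.9) completed the 7 genes with a mean above 10 RPKM. NR2C2, NCOA3, NCOA1, PPARD, NRIP1 and ESR1 followed between 8.38 and 7.13 RPKM, with libraries that overlapped from each gene to the next. RARG (5.45), RARB (3.95), NCOA2 (3.50), VDR (2.01), RORA (1.76) and NR2C1 (1.72) were lower, and 8 genes had a mean below 1 RPKM.

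**Figure D1:**
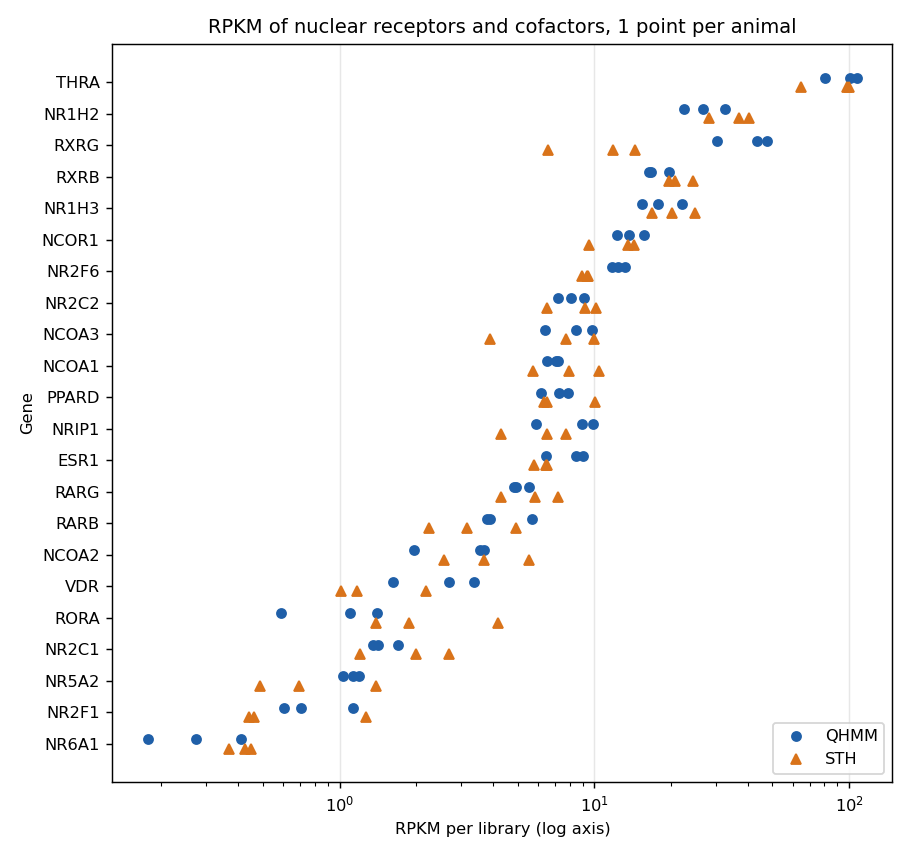
Deposited RPKM (log axis) of the 22 tested receptors and cofactors, ordered by the mean over all libraries, with 1 circle for each QHMM animal and 1 triangle for each STH animal. THRA lies above all others in every library, and the widest gap between breeds is that of RXRG, at 30.4 to 47.4 RPKM in QHMM and 6.58 to 14.4 in STH.

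RXRG had 1119, 1445 and 766 normalized counts in QHMM 1, 2 and 3, and 313, 155 and 360 in STH 1, 2 and 3. The lowest QHMM animal was above the highest STH animal, and STH 2 was the lowest of all. The means were 1110 ± 339 (SD, n = 3) in QHMM and 276 ± 107 (SD, n = 3) in STH, and the log2 fold change was -2.01 (SE 0.34, 95% interval -2.76 to -1.26, FDR = 0.0143), which is 4.02-fold lower in STH. These values rest on 145 to 1254 reads per library. The call held when any 1 of the 6 libraries was left out, with log2 fold changes from -2.24 to -1.74 and FDR values from 0.0211 to 0.0426. Without both QHMM 2 and STH 3 the size was the same, at -2.02 (SE 0.39), but the FDR rose to 0.0962. That fit called 0.0864% of all genes, and the fits without 1 library called 1.03% to 4.21%. In whole muscle, fewer cells or fibres of a type cannot be told apart from less RNA per cell.

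The other retinoid X receptor with a row, RXRB, which is expressed in most tissues, had 532, 740 and 514 normalized counts in QHMM and 559, 713 and 741 in STH, so the breeds overlapped. Its log2 fold change was 0.17 (95% interval -0.33 to 0.67, FDR = 0.731). In RPKM, which is not corrected for library composition, its STH libraries were just above those of QHMM, at 19.6 to 24.5 against 16.5 to 19.6. A further row, LOC101108039, for which the deposited table gives RXRA as the best match, had a log2 fold change of -0.21 (95% interval -0.77 to 0.36, FDR = 0.713).

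The order of the RXR genes differed between breeds. RXRG was the most abundant in QHMM, at 40.5 ± 8.93 RPKM (SD, n = 3) against 17.6 ± 1.74 for RXRB, whereas in STH it was below RXRB, at 10.9 ± 3.99 against 21.6 ± 2.50. RXRG made up 72.3%, 70.8% and 64.9% of the summed RPKM of RXRG and RXRB in QHMM 1, 2 and 3, and 40.9%, 21.2% and 37.6% in STH. The shares did not overlap, and their means of 69.3 ± 3.90% and 33.2 ± 10.5% gave a difference, STH minus QHMM, of -36.1 percentage points. The two-sided exact permutation test gave p = 0.1, the smallest value that 3 against 3 animals allow, so this design cannot place the share below 0.05. With LOC101108039 counted in the sum, RXRG made up 46.0% to 57.3% in QHMM and 14.6% to 28.0% in STH. The summed level of RXRG and RXRB was 58.1 ± 10.3 RPKM in QHMM and 32.6 ± 2.32 RPKM in STH (exact permutation p = 0.1).

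**Figure D2:**
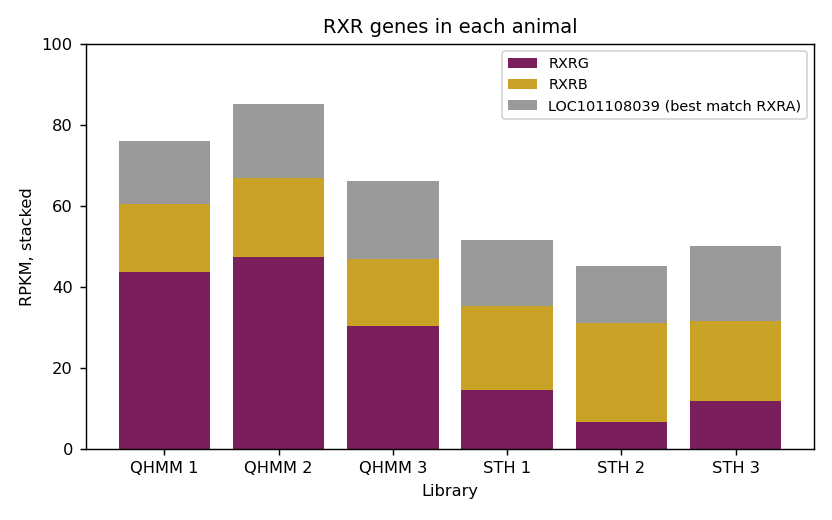
Stacked RPKM of RXRG, RXRB and LOC101108039, the row whose best match is RXRA, in each of the 6 libraries. The RXRG segment spans 30.4 to 47.4 RPKM in QHMM and 6.58 to 14.4 RPKM in STH. The RXRB segment spans 16.5 to 19.6 RPKM in QHMM and 19.6 to 24.5 RPKM in STH.

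The cell type marker lists give the context of the RXRG difference. All 7 slow-fibre markers with a row were lower in STH, and 3 of them were called, namely OMYHCS, the slow myosin heavy chain (log2 fold change -1.34), the light chain MYL2 (-1.44) and the troponin TNNT1 (-1.37). Beside these and the other marker calls below, 1.83% of all genes were called lower and 1.62% higher in STH. With any 1 QHMM library left out 0 slow-fibre markers were called, with STH 2 left out 1 was, and with STH 1 or STH 3 left out 2 were. DESeq2, which called 6.85% of the genes it tested, called 6 of the 7. Of the 5 adipocyte markers, ADIPOQ, PLIN1, LEP and CIDEC were called and lower in STH (log2 fold changes -2.13 to -4.21), with the list's summed level at 59.2 to 276 RPKM in QHMM and 40.3 to 129 RPKM in STH. The adipocyte marker FABP4 had a log2 fold change of -0.04. The 4 adipocyte calls fell to 2 without QHMM 1, QHMM 3 or STH 3, to 3 without STH 1 and to 1 without STH 2, and without QHMM 2 and STH 3 together 0 slow-fibre and 0 adipocyte markers were called. Of all genes, 1.03% to 4.21% were called with 1 library left out and 0.0864% without both. All 5 fast-fibre markers tested had negative log2 fold changes (median -0.25), but none was called by edgeR or DESeq2, and 0 had an unadjusted p below 0.05. The lowest p was that of ATP2A1, named after its values were seen (log2 fold change -0.71, edgeR unadjusted p = 0.0587). It was lower in STH without overlap in RPKM but not in normalized counts. Summed levels overlapped between breeds for endothelial (109 to 137 and 110 to 178 RPKM in QHMM and STH), macrophage and leukocyte (28.4 to 35.8 and 19.3 to 37.2), fibroblast (278 to 524 and 201 to 406) and Schwann cell markers (24.7 to 53.1 and 25.8 to 43.3). All 4 fibroblast markers had negative log2 fold changes (median -0.68), and the collagen gene COL1A1 (-1.30, FDR = 0.113) and the macrophage gene AIF1 (-0.80, FDR = 0.166) were lower in STH without overlap but not called by edgeR, while DESeq2 called 1 fibroblast marker. Both are named after their values were seen. Satellite cell markers summed to 3.99 to 6.52 RPKM in QHMM and 8.13 to 10.4 RPKM in STH, where CDH15 alone was called (log2 fold change 1.12, FDR = 0.0448, lost without any library but STH 1). PAX7 (-1.43) and MYF5 (-0.01) did not share its direction. The part of fibre type, fat or other cells in the RXRG difference was not tested.

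The retinoic acid receptors bind all-trans retinoic acid as partners of RXR. RARB had 171, 136 and 116 normalized counts in QHMM and 125, 87.6 and 80.7 in STH, with STH 1 inside the QHMM range. Its log2 fold change was -0.52 (95% interval -1.13 to 0.08, FDR = 0.331). RARG was at nearly equal levels, with 169, 198 and 187 normalized counts in QHMM and 210, 184 and 175 in STH, and a log2 fold change of 0.04 (95% interval -0.44 to 0.52). The row LOC101107973, whose gene ID is that of RARA in the RefSeq gene table, had 329, 296 and 197 normalized counts in QHMM and 235, 125 and 213 in STH (log2 fold change -0.52, FDR = 0.373).

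The THRA libraries overlapped in normalized counts. QHMM had 2290, 3624 and 2812, STH had 2406, 1684 and 3314, and the log2 fold change was -0.24 (95% interval -0.88 to 0.41, FDR = 0.711). VDR, the vitamin D receptor, was expressed at a low level, with 58.9, 42.2 and 72.1 normalized counts in QHMM and 40.4, 20.3 and 30.3 in STH. The lowest QHMM value was just above the highest STH value. The log2 fold change of -0.92 (95% interval -1.72 to -0.12, FDR = 0.197) was the largest decrease after that of RXRG, and it was not called.

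The log2 fold changes of the lipid sensors lay between -0.02 and 0.21. PPARD, the fatty acid receptor that is widespread in muscle, had 124, 159 and 104 normalized counts in QHMM and 91.6, 157 and 132 in STH (log2 fold change -0.02, 95% interval -0.65 to 0.60). The oxysterol receptor NR1H2 (LXR beta) had 415, 714 and 481 in QHMM and 630, 625 and 613 in STH (log2 fold change 0.21, 95% interval -0.31 to 0.74). In normalized counts its STH animals were nearly identical and lay inside the wide QHMM range. In RPKM they spread from 28.1 to 40.5, against 22.6 to 32.7 in QHMM. NR1H3 (LXR alpha) had 400, 680 and 453 in QHMM and 440, 400 and 764 in STH (log2 fold change 0.07, 95% interval -0.59 to 0.73). In each breed the library that stood apart on the second principal axis, QHMM 2 or STH 3, had the highest normalized count of NR1H3. The same held for THRA, RXRG, RXRB and NR2F6. NR1H4, the bile acid receptor of liver and gut, had 1 read in all libraries together.

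ESR1, the estrogen receptor alpha, had 667, 567 and 618 normalized counts in QHMM and 409, 392 and 566 in STH. STH 3 came within about 1 normalized count of the lowest QHMM animal, and the log2 fold change was -0.44 (95% interval -0.92 to 0.04, FDR = 0.305). ESR2, the estrogen receptor beta, was near the limit of detection, with 5, 5 and 3 reads in QHMM and 0 reads in every STH library. With 3 reads over the STH libraries as the most that a count of 0 allows, the observed QHMM mean was 4.51-fold above that ceiling. This figure allows for counting error in STH only. It leaves out the counting error of the 13 QHMM reads and the variation between animals, so it is not a lower bound for the breed difference. ESR2 was too low to be tested. The row LOC443444, with the gene ID of PGR in the RefSeq table, had 19, 5 and 6 reads in QHMM and 6, 13 and 8 in STH and was not tested either.

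RORA, an orphan receptor with ties to the circadian clock and lipid metabolism, had the largest increase, with 162, 103 and 203 normalized counts in QHMM and 234, 565 and 243 in STH. All STH animals were above all QHMM animals, but STH 2 was more than 2-fold above the other STH animals. The log2 fold change was 1.15 (SE 0.38, 95% interval 0.32 to 1.98, FDR = 0.126), or 2.22-fold higher, and it was not called. Without STH 2 it was 0.59. DESeq2, which called 6.85% of the genes it tested, called RORA with a log2 fold change of 1.14 (adjusted p = 0.0421). RORB, the related receptor of brain and retina, had 1 read in all.

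The other orphan receptors were not called. NR2F6, a repressor of the COUP-TF family, had 257, 289 and 270 normalized counts in QHMM and 165, 171 and 231 in STH, without overlap (log2 fold change -0.53, 95% interval -1.03 to -0.03, FDR = 0.237). NR2F1, of the same family, had 31.2, 19.9 and 19.3 in QHMM and 29.7, 11.8 and 14.6 in STH (log2 fold change -0.31). LOC101118308, a row whose best match in the deposited table is NR2F2, had a log2 fold change of -0.05 (FDR = 0.938). The testicular receptors NR2C1 and NR2C2 had log2 fold changes of 0.25 and -0.06. NR5A2, a receptor known from liver and steroid-producing tissue, had 21.4, 23.4 and 22.3 normalized counts in QHMM and 22.3, 8.55 and 15.7 in STH, with a QHMM spread of only 4.46% of the mean, the smallest of all 22 genes in that breed. This spread rests on 20 to 24 reads per QHMM library and is smaller than the counting error of so few reads, so it does not describe the animals. NR6A1, the germ cell nuclear factor, had a mean of 0.351 RPKM (log2 fold change 0.45, FDR = 0.699). NR0B1 and NR0B2, which lack a DNA-binding domain and inhibit other receptors, had 3 and 5 reads in QHMM and 0 reads in STH, too few to compare.

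The coactivators of the p160 family, NCOA1, NCOA2 and NCOA3, bind receptors with ligand and recruit histone acetyltransferases. NCOA1 had 424, 466 and 424 normalized counts in QHMM and 529, 439 and 408 in STH (log2 fold change 0.07, 95% interval -0.38 to 0.51). NCOA2 had 292, 192 and 298 in QHMM and 386, 278 and 251 in STH (log2 fold change 0.23, FDR = 0.686). NCOA3 had 486, 436 and 551 in QHMM and 484, 407 and 264 in STH (log2 fold change -0.35, FDR = 0.496), where STH 3 was the lowest. None of the 3 separated the breeds.

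Both corepressors had lower normalized counts in every STH animal than in every QHMM animal, as 11.7% of all genes did, but overlapped in RPKM, and neither was called. NCOR1, which carries histone deacetylases to receptors without ligand, had 1440, 1540 and 1621 normalized counts in QHMM and 1274, 1304 and 1197 in STH (log2 fold change -0.29, 95% interval -0.72 to 0.15, FDR = 0.478). NRIP1 (RIP140), a corepressor that restrains oxidative metabolism, had 523, 409 and 564 in QHMM and 382, 349 and 297 in STH (log2 fold change -0.54, 95% interval -1.02 to -0.06, FDR = 0.205). The ratio of NCOR1 to the summed RPKM of the 3 coactivators was 0.716, 0.826 and 0.758 in QHMM and 0.551, 0.696 and 0.786 in STH. The means of 0.767 ± 0.0554 and 0.678 ± 0.119 differed by less than the spread (exact permutation p = 0.4, two-sided).

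Over the whole group, 5 genes had an unadjusted p below 0.05, with RORA higher and RXRG, VDR, NR2F6 and NRIP1 lower in STH. This is 22.7% of those tested, and 19.2% of all tested genes passed the same limit. The libraries of the breeds did not overlap in normalized counts for 7 of 22 genes (31.8%), against 24.7% of all tested genes. In this count RORA was the gene that lay higher in STH, as 13% of all genes did, and RXRG, VDR, ESR1, NR2F6, NCOR1 and NRIP1 lay lower, as 11.7% did. The separation depended on scaling, since in the deposited RPKM only RXRG, NR2F6 and RXRB were free of overlap (13.6%, against 23.3% of all genes), with RXRB higher in STH. The RPKM scale moved the median log2 fold change of all genes by 0.11 towards STH, and of the 20 genes of the group that passed its filter 10 were then lower in STH and 10 higher. Relative to their means, the 22 genes varied by a median of 20.6% between QHMM animals and 25.3% between STH animals, with RORA in STH the most variable at 54.2%.

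**Figure D3:**
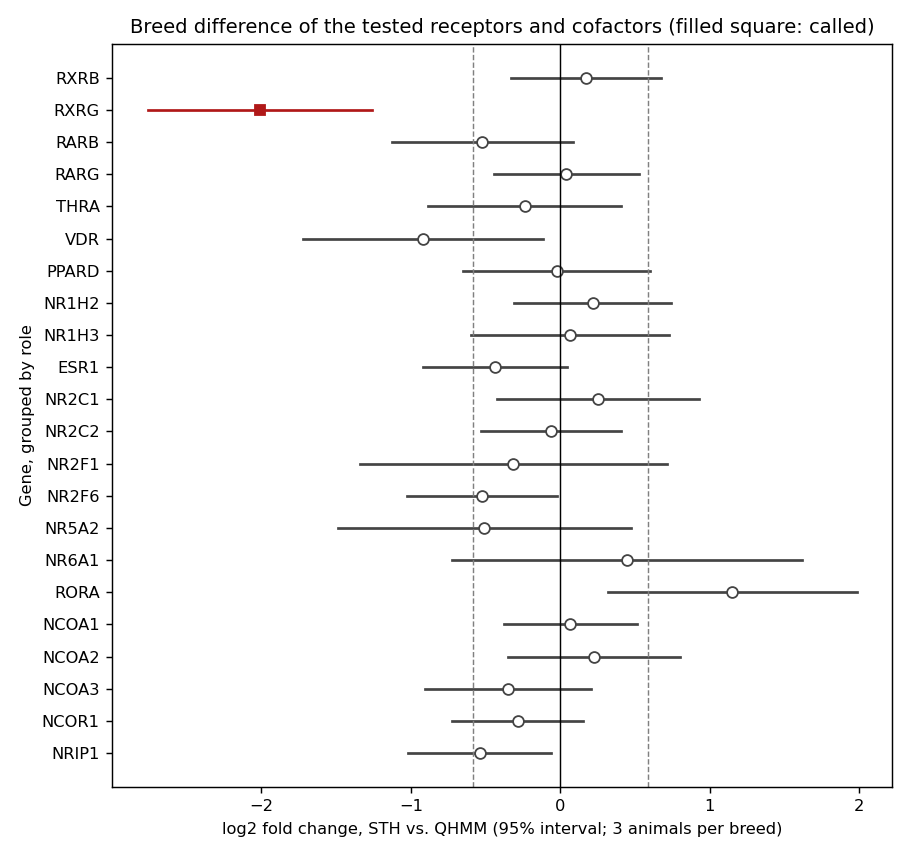
Log2 fold change of the 22 tested genes with its 95% interval from edgeR, grouped by role. The dashed lines mark the minimum change for a call, 1.5-fold in either direction, and RXRG at -2.01 is the 1 gene called (filled square), while RORA at 1.15 is the furthest to the right.

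**Figure D4:**
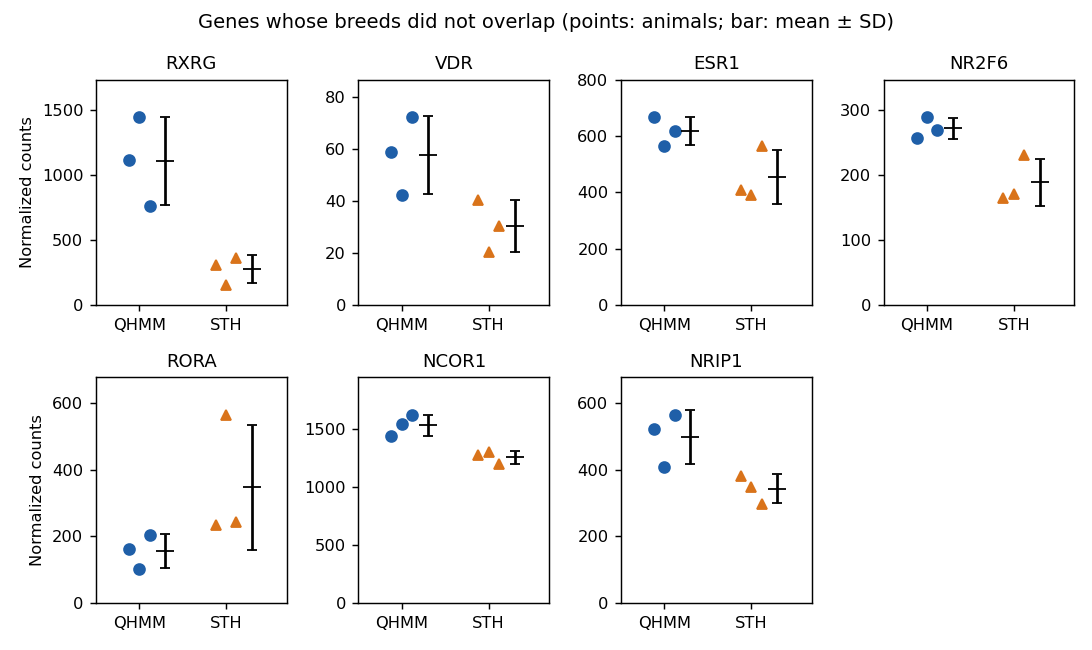
Normalized counts of the 7 genes whose breeds did not overlap, with 1 point per animal and the mean ± SD beside them (n = 3 per breed). The gap is wide for RXRG and narrow for the other 6, and for ESR1 the nearest animals, at 567 in QHMM and 566 in STH, almost touch.

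Other genes of the same machinery were described from 7 lists. Of 20 nuclear receptors outside the group, 14 were tested and 0 were called by edgeR (median log2 fold change -0.32). An edgeR unadjusted p below 0.05 was found for 3 of the 14, and for 19.2% of all tested genes. DESeq2, which called 6.85% of the genes it tested, called 1, NR1D2. Among those with the smallest p values were the clock repressors NR1D2 (log2 fold change 1.004, FDR = 0.0826) and NR1D1 (0.51, FDR = 0.217). Of 26 further coregulators, 24 were tested and 0 were called by edgeR or DESeq2 (median 0.16). An edgeR unadjusted p below 0.05 was found for 4 of the 24, against the same 19.2% of all tested genes. The smallest p values were those of NCOA5 (0.79, FDR = 0.1001), CITED2 (0.91, FDR = 0.131) and PNRC1 (1.02, FDR = 0.141).

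Genes that handle retinoids were called in both directions. Of 11 tested, RBP4, the retinol carrier of plasma, fell, and FABP5, which can deliver fatty acids and retinoic acid to the nucleus, rose (median of the list -0.41). Beside the calls of this list and of the thyroid list below, 1.83% of all genes were called lower and 1.62% higher in STH. RBP4 had 980, 410 and 557 normalized counts in QHMM and 285, 162 and 239 in STH (log2 fold change -1.50, SE 0.34, FDR = 0.0406), and FABP5 had 369, 215 and 193 in QHMM and 891, 781 and 1026 in STH (log2 fold change 1.79, SE 0.28, FDR = 0.0114). FABP5 was called in all 6 fits that left out 1 library, whereas RBP4 lost the call without QHMM 1, QHMM 3, STH 2 or STH 3 (FDR up to 0.112). CRABP2, which carries retinoic acid in the cytoplasm, was at 1.99 with FDR = 0.121. Among 9 tested genes of thyroid hormone handling and response, THRSP, a lipogenic target, fell (-4.16 on the log2 scale, SE 0.92, FDR = 0.0397), and KLF9, a transcription factor that also responds to glucocorticoids, rose with 1.69 (SE 0.40, FDR = 0.0494), and the list's median was -0.55. KLF9 in STH 2, at 3676 normalized counts, was far above the 1188 and 1280 of the other STH animals. THRSP varied between 107 and 813 normalized counts in QHMM and between 3.30 and 47.1 in STH. Its log2 fold change was -2.71 without QHMM 1 and -5.62 without STH 3. Its call was lost without QHMM 1, QHMM 3, STH 1 or STH 2 (FDR up to 0.114), and that of KLF9 without any QHMM animal or STH 2 (FDR up to 0.149). HR, a corepressor of the thyroid hormone receptor, was at -0.85 (FDR = 0.0506).

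Of 15 tested PPAR target genes, 4 were called higher in STH (1.62% of all genes) and 0 lower, and the list's median log2 fold change was 0.37. The 1 gene of the list with a lower value in STH was LPL, lipoprotein lipase, at 2522, 637 and 1041 normalized counts in QHMM and 547, 540 and 243 in STH (log2 fold change -1.66, SE 0.48, FDR = 0.0851), without overlap in normalized counts. LPL is named after its values were seen. PDK4, the kinase that slows glucose oxidation, had 474, 2554 and 164 normalized counts in QHMM and 34016, 41043 and 38670 in STH (log2 fold change 5.16, SE 0.86, FDR = 0.0137). PLIN2, a lipid droplet coat protein, had 196, 245 and 272 in QHMM and 437, 817 and 959 in STH (1.63, SE 0.30, FDR = 0.0193). ANGPTL4, an inhibitor of lipoprotein lipase, rose by 2.13 (SE 0.50, FDR = 0.0450) and CPT1A, which admits fatty acids to mitochondria, by 1.33 (SE 0.32, FDR = 0.0491) on the log2 scale. PDK4 kept its call in 5 of the 6 fits that left out 1 library, with FDR = 0.0506 without QHMM 1, and its log2 fold change ran from 4.65 without QHMM 3 to 6.89 without QHMM 2. PLIN2 kept it without STH 1 or STH 3 (FDR up to 0.0839 in the other fits), ANGPTL4 without QHMM 2 or STH 1 (up to 0.138) and CPT1A without STH 3 (up to 0.154), and without QHMM 1 the number of these targets called was 0. The fit without QHMM 1 called 1.03% of all genes.

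Of 9 tested LXR target genes, 4 were called lower in STH (1.83% of all genes) and 1 higher (median -0.54). Between 3 and 5 were called with 1 library left out, with 3 without QHMM 1, QHMM 2, STH 2 or STH 3, and 0 without QHMM 2 and STH 3 together. Of all genes, 1.03% to 4.21% were called with 1 library left out and 0.0864% without both. SREBF1, the regulator of fatty acid synthesis, had 645, 876 and 680 normalized counts in QHMM and 201, 123 and 314 in STH (log2 fold change -1.79, SE 0.32, FDR = 0.0183). The lipogenic enzymes SCD (-4.78, SE 0.76, FDR = 0.0123) and FASN (-3.69, SE 0.86, FDR = 0.0446) and the phospholipid transfer protein PLTP (-1.24, SE 0.27, FDR = 0.0376) also fell, and the phosphodiesterase SMPDL3A rose (1.95, SE 0.32, FDR = 0.0135). The uncalled genes of the list were ABCA1 (-0.17, FDR = 0.859), ABCG1 (-0.24, FDR = 0.750), LPCAT3 (-0.54, FDR = 0.284) and MYLIP (1.23, FDR = 0.0669). MYLIP was higher in STH without overlap. These uncalled genes are named after their values were seen. QHMM 1 was far above the other animals for FASN, with 16315 normalized counts against 1020 and 2003 in QHMM and 436 to 554 in STH, and without it the log2 fold change was -1.62. SCD had 5180, 726 and 1088 normalized counts in QHMM and 63.5, 48.1 and 143 in STH, and it was called in all 6 fits that left out 1 library, with log2 fold changes from -5.37 without STH 3 to -3.44 without QHMM 1. SREBF1 was called in all but that without QHMM 2 (FDR = 0.0566), SMPDL3A in all but that without QHMM 1 (FDR = 0.0562), FASN in those without a QHMM animal but not in those without an STH animal (FDR up to 0.129), and PLTP in that without STH 1 but in none of the other 5 (up to 0.114). With dispersions estimated robustly, the calls of PDK4 (FDR = 0.0762), ANGPTL4 (0.105), SCD (0.0751), FASN (0.197), THRSP (0.174) and KLF9 (0.0642) were lost. With upper-quartile normalization those of KLF9 (0.0532) and CPT1A (0.0616) were lost, and limma-trend on log2(RPKM + 1) did not call RBP4 (0.0931), KLF9 (0.0827), CPT1A (0.110), FASN (0.137) or PLTP (0.0919). SCD, FASN and THRSP are also strongly expressed in fat cells. Of the 5 adipocyte markers above, 4 were called lower in STH. FABP4 was not called (log2 fold change -0.04, FDR = 0.98) and overlapped between breeds. The adipocyte marker ADIPOQ had 3196, 1102 and 1672 normalized counts in QHMM 1, 2 and 3. Like ADIPOQ, RBP4 and LPL were highest in QHMM 1, and their normalized counts were lower in every STH animal than in every QHMM animal. In RPKM the breeds overlapped for LPL, with 25.8 in QHMM 2 against 31.1 in STH 1 and 28.3 in STH 2. The part of fat cells in these differences was not tested. Of 7 genes of vitamin D handling, 2 have a row and 0 were expressed highly enough to be tested.

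**Figure D5:**
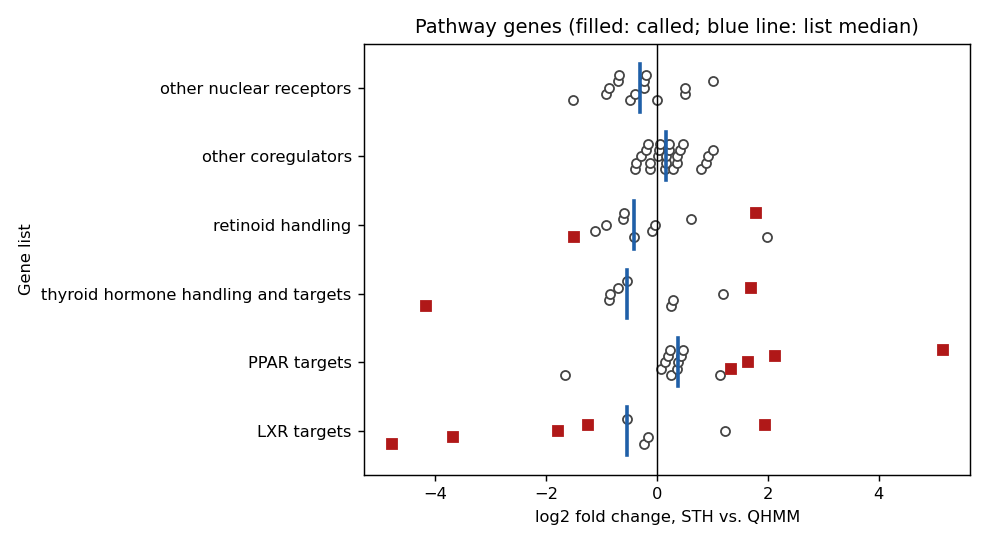
Log2 fold change of the tested genes of 6 pathway lists, with called genes as filled squares, other genes as open circles and the median of each list as a vertical line. The called genes of the PPAR target list all lie to the right of 0, led by PDK4 at 5.16, and 4 of the 5 called LXR targets lie to the left, led by SCD at -4.78.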

How the data were processed

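The authors sequenced poly(A) RNA on an Ion Proton instrument, mapped the reads to the sheep genome Oar_v3.1, and deposited counts of uniquely mapped reads per gene and RPKM values. The aligner, the counting program, the annotation release and the use of strand in counting are not given in the sources used here. Names turned into dates took 25 genes out of the RPKM table.

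Counts were tested with edgeR 4.0.16 under R 4.3.3 (filterByExpr, TMM normalization and the quasi-likelihood functions glmQLFit and glmQLFTest, breed being the sole term, Benjamini-Hochberg adjustment over 12506 genes). Normalized counts are counts divided by TMM-corrected library sizes and set to a common size. Within breeds, no pair of libraries matched within sampling noise. Ratios were tested by exact permutation. Alternatives used DESeq2 1.42.0 and limma 3.58.1, and scripts were tested on simulated data. Named were all genes of the group with a row and, of each pathway list, those called or, where fewer than 3 were called, the 3 with the smallest p, of which 1 is not reported here. The genes and lists were chosen with earlier results of these data known. Sequences were not used here.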

Additional observations from a re-analysis of the deposited data

How the results depend on the processing

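The number of receptors and cofactors called was 1 (RXRG) in 10 of 13 alternatives and in all 6 fits that left out 1 library. DESeq2 called 2 (RORA added), and limma-trend on log2(RPKM + 1) without a filter and the fit without QHMM 2 and STH 3 called 0. These last fits called 0.442% and 0.0864% of all genes, in that order. Of the 81 pathway genes, 13 were called, against 20 with DESeq2, 8 with robust dispersions, 8 with limma-trend on log2(RPKM + 1), 8 on log2(RPKM + 0.1), 3 without its filter, 2 without QHMM 2 and STH 3 together, and 4 to 11 in the fits that left out 1 library. Of all genes, DESeq2 called 6.85%, robust dispersions 3.49% and the fits that left out 1 library 1.03% to 4.21%. Directions reversed for uncalled genes near 0. With limma-trend, with and without its filter, PPARD was at 0.072 (0.079 with the pseudocount of 0.1), NR2C2 at 0.054 (0.058) and LOC101118308 at 0.059 (0.077). Without QHMM 2 and STH 3, PPARD was at 0.11, NR1H3 at -0.033 and NR2C2 at 0.057. With 1 library left out, values ran from -0.055 to 0.097 for RARG, -0.28 to 0.33 for NR1H3, -0.22 to 0.16 for PPARD, -0.20 to 0.027 for NR2C2, -0.15 to 0.082 for LOC101118308, -0.064 to 0.15 for NCOA1 and -0.017 to 0.41 for NR2C1. The cause was not tested.

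Deviations of animals with the same replicate number correlated at r = 0.23, -0.04 and -0.13, inside the range of -0.26 to 0.29 for different numbers. The highest value was that of QHMM 2 with STH 3. The numbers thus gave no sign of pairing, but 3 animals per breed are too few to exclude it. With the replicate number as a block, 1 receptor (RXRG, log2 fold change -2.03, FDR = 0.0211) and 9 pathway genes were called, and the block leaves the differences of the RXRG share (-36.1 points) and the coactivator ratio (-0.0892) as they are by arithmetic. Shares of RXRG among all RXR genes and of THRA among thyroid hormone receptors were not run, since RXRA and THRB have no row. The RXRG share of RXRG and RXRB was chosen after seeing the data and differed by -30.1 to -39.9 points with 1 library left out. Depth limits statements on ESR2, NR0B1, NR0B2, NR1H4 and RORB, and 3 animals per breed limit the rest.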
